A study of Bos taurus with 2 samples.

Results

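Annexins and flotillins are proteins of the inner face of membranes, and their transcripts were followed here in RNA from 2 fractions of bovine milk whey. The genes were taken by name: every gene probe that the array files give to 1 of 10 symbols, 8 annexins (ANXA1, ANXA2, ANXA3, ANXA4, ANXA5, ANXA6, ANXA7 and ANXA11) and 2 flotillins (FLOT1 and FLOT2), of 15852 genes with a symbol. They have 31 probes of 60 bases among 43652. Whey of raw milk from Holstein cows was spun at 10000 g for 90 min; the pellet, washed in 2 further spins and called exosome by the submitters, is compared with the supernatant above it. For each fraction the RNA of 3 milks was mixed in equal parts, 100 ng was labelled with the dye Cy3, and the mixture was hybridised to 1 array. With 1 array per fraction there is no replicate, so no test is given and each difference is between these 2 arrays. The spin speed is as the labels state it and is low for pelleting small vesicles, so what the pellet holds besides vesicles is not known. Both fractions were labelled from the same mass of RNA, so fewer vesicles or cells and less RNA in each cannot be told apart.

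Annexins bind negatively charged phospholipids when calcium is present, through a core of repeated domains, and differ in the stretch that precedes that core. They take part in membrane fusion, secretion and the repair of torn membranes. Flotillins are anchored to the membrane by fatty acids and a hairpin, assemble into oligomers and mark cholesterol-rich domains. Both families are commonly used as protein markers of extracellular vesicles and occur in the membrane of milk fat globules. The arrays measured their messenger RNA, not the proteins.

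The pellet array detected 9 of the 10 members and the supernatant array 3. Detection of a probe is the scanner software's call of well above background, and 1 such probe was enough for a gene. ANXA6, ANXA11 and FLOT2 were detected on both arrays, ANXA1, ANXA2, ANXA4, ANXA5, ANXA7 and FLOT1 on the exosome array alone, and ANXA3 on neither. No member was detected in the supernatant alone. With the software's weaker flag the supernatant count of members was 9, among them ANXA3 by a probe that read 2.52 there. The share of all genes detected in the supernatant under that flag was not taken, so this count has no like comparison. Members with a probe detected in both fractions rose from 3 to 8 under the weaker flag, and genes over the whole array from 3390 to 9595. By the call of well above background, the exosome array detected 69.2% of all genes with a symbol and the supernatant array 22.8%. The exosome array alone detected 47.4%. The share of members found in the pellet alone, 6 of 10, lies near the share of genes at large, so it is no feature of the members.

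**Figure D1:**
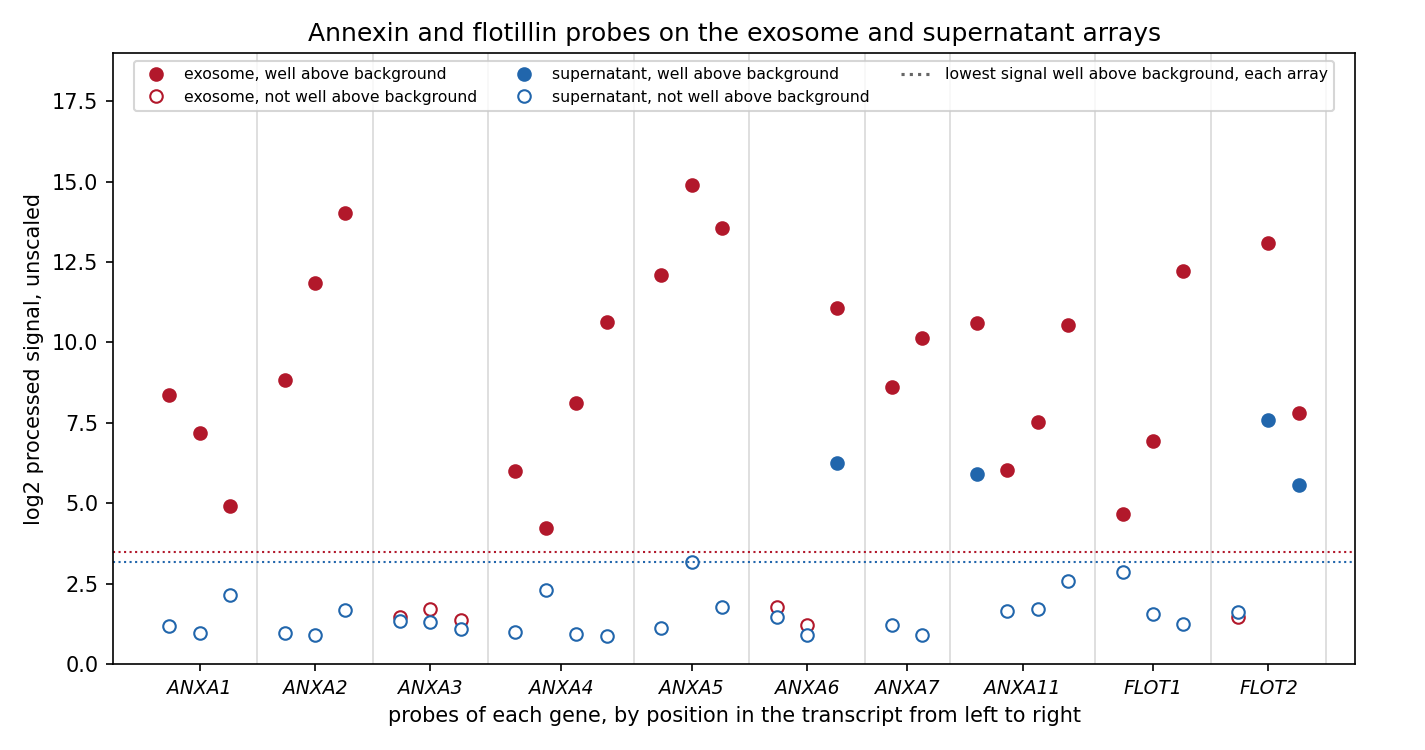
The log2 processed signal (unscaled) of each of the 31 probes on the exosome array (red) and the supernatant array (blue), grouped by gene and ordered within a gene by position in its transcript record. Filled points are well above background and the dotted lines mark the lowest signal so called, 11.3 (exosome) and 9.04 (supernatant) before log2. Supernatant points are filled for 1 probe of ANXA6, 1 of ANXA11 and 2 of FLOT2.

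Probe sequences are shown for 1 feature that differed in frequency between these cases without separating them. All 4 probes detected on both arrays hold a run of at least 4 C or 4 G. Of the 21 probes detected on the exosome array alone, 4 hold such a run, and of the 6 detected on neither, 1 does. For each, 30 bases of the probe around its longest run are given, 5′ to 3′, with that run in capitals. The first 4 belong to probes detected on both arrays and the next 4 to probes detected in the pellet alone.
ANXA6, position 2397: tctcttgtcacagCCCCtgccctggtctgg
ANXA11, position 414: gaatgtacccgCCCCCtggaggaaacccac
FLOT2, position 1519: ggatgctgcactgCCCCactgcctgtccct
FLOT2, position 1689: cttgtctgtctgtGGGGGtggccctgctgc
ANXA4, position 287: agcaggtgatcctGGGGatgatgacaccca
ANXA11, position 1374: tgtcttaagaataCCCCagccttctttgct
ANXA11, position 1678: atctacaaagtagCCCCCaggtgtcacagt
FLOT1, position 628: ttacactcgccatGGGGtccccatctcaat
Positions count along the transcript record that the array names. Over all 43652 probes, 23.3% hold CCCC or GGGG, and since both letters were searched either strand is covered.

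The same feature went with supernatant detection over the whole array. Of 6629 exosome-detected probes with CCCC or GGGG, 37.0% were also detected in the supernatant, against 15.1% of the 18895 without. The share also differed with base composition, at 8.85% of probes with at most 30% G and C and 61.9% of those above 60%, without rising at every step between. The 4 probes of ANXA6, ANXA11 and FLOT2 on both arrays held 45 to 60% G and C with a median of 52.5%, and the 21 in the pellet alone held 25 to 55% with a median of 40%. The ANXA11 probe at position 1678, with its run of 5 C and 41.7% G and C, was among the latter. The part of base composition in the detection of ANXA6, ANXA11 and FLOT2 in the supernatant was not tested.

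**Figure D2:**
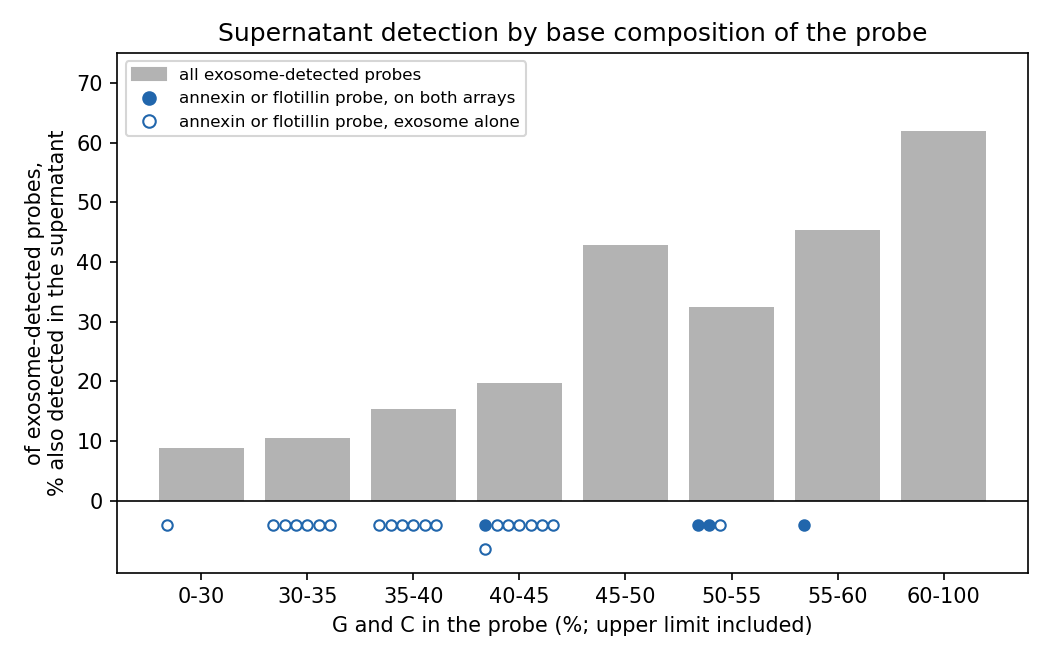
Bars give the percentage of exosome-detected probes that were also detected in the supernatant, by G and C content of the probe (all probes of the array). Points under the axis are the 25 exosome-detected annexin and flotillin probes, filled for the 4 on both arrays, of which 3 lie above 50% G and C.

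ANXA2, ANXA5 and ANXA7 had the highest bounds among the members seen in the pellet alone. ANXA2 (NCBI Gene 282689) carries the S100A10 dimer at the cell surface and links actin to membranes. Its 3 probes, at positions 170, 916 and 1290, read 455, 3659 and 16658 in the pellet and 1.94, 1.86 and 3.19 in the supernatant, where none was well above background. Signals here and below are the scanner software's background-subtracted brightness in arbitrary units, before scaling, and the software's own error was 1666 on the 16658 of ANXA2. Every ANXA2 probe was bright in the pellet and lay near the level of probes with no target in the supernatant, whose median was 2.08 over 153 spots. Averaged over its probes in log2, ANXA2 was at least 335-fold higher in the pellet before scaling, with bounds of 50.3-fold to 1843-fold for single probes. All bounds of genes here are such averages, so a single probe can lie below its gene's bound.

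ANXA5 (NCBI Gene 281626), which binds exposed phosphatidylserine and is used to stain dying cells, was likewise bright at every probe in the pellet. Its probes at positions 759, 1427 and 2090 read 4386, 30611 and 12103 in the pellet. In the supernatant they read 2.18, 8.93 and 3.39. The middle probe came close to the lowest supernatant signal called well above background, 9.04, and was not called. ANXA5 was on average at least 1301-fold higher in the pellet before scaling, with probe bounds from 485-fold to 3387-fold. ANXA7 (NCBI Gene 533360), an annexin known from chromaffin granule fusion, read 394 and 1118 in the pellet against 2.31 and 1.85, and was on average at least 73.4-fold higher.

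These bounds follow the pellet signal, since the supernatant side sits at its floor, and they do not order the genes by abundance. Signals of different probes are not comparable with each other. Of the 25 members' probes detected in the pellet, 3 had a signal of at least 10000 there (1 of ANXA2 and 2 of ANXA5). None of these 3 was well above background in the supernatant, though all 3 carried the software's weaker flag there. Over the whole array, 69.8% of the 935 probes that bright were detected in both fractions. Among probes with a pellet signal from 1000 to 10000, 3 of 9 members' probes and 31.0% of all 4364 were.

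Probe sequences of ANXA2 and ANXA5 from this contrast, and of ANXA3, which gave none, show what the array asked for, 5′ to 3′.
ANXA2, position 916: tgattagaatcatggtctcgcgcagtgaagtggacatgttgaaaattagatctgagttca
ANXA5, position 759: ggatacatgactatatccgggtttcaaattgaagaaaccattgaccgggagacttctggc
ANXA3, position 482: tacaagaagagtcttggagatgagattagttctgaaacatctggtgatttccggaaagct
ANXA3, position 753: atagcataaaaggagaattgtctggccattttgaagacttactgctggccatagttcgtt
In the array's design build, HGSC Btau_3.1, the ANXA2 probe lies at chr10:50257859-50257918, the ANXA5 probe at chr6:3583341-3583398 and the first ANXA3 probe at chr6:96756856-96756915, all on the plus strand. The second ANXA3 probe covers 4678 bases of the genome, chr6:96766023-96770700, so it crosses an intron.

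ANXA1, ANXA4 and FLOT1 were also seen in the pellet alone, with lower bounds. ANXA1 (NCBI Gene 327662), an anti-inflammatory annexin that acts through formyl peptide receptors, read 333, 144 and 30.4 in the pellet at positions 1106, 1328 and 1350. Its supernatant signals were 2.29, 1.94 and 4.39. The bound over these probes was 12.5-fold before scaling, and 24.2-fold without the probe at position 1350. ANXA4 (NCBI Gene 281625) is an annexin of epithelial cells. Its probes at positions 287, 1373 and 1898 read 64.3, 275 and 1588 in the pellet and 1.99, 1.90 and 1.82 in the supernatant. Another ANXA4 probe, made from another transcript record at its position 895, read 18.7 and 4.90. The ANXA4 probe bounds averaged 16.8-fold and ran from 2.07-fold to 176-fold, so they do not give 1 difference for the gene.

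The array's design places the ANXA1 probe at position 1350 on another chromosome than the other ANXA1 probes, so its RNA source is uncertain. The bound of the probe at position 1350 was 3.36-fold, against 36.8-fold and 16.0-fold for the probes at positions 1106 and 1328. A further probe, which the array describes as a partial annexin A1 consensus without giving it the symbol, read 13.8 in the pellet and 2.0 in the supernatant and was detected in the pellet alone.

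FLOT1 (NCBI Gene 532573), the partner with which FLOT2 forms hetero-oligomers, read 25.5, 121 and 4787 in the pellet at positions 628, 846 and 2033. In the supernatant the same probes read 7.29, 2.95 and 2.38. All FLOT1 probes were detected in the pellet and none in the supernatant, which gives an average bound of 27.2-fold before scaling. The bounds of its probes ran from 2.82-fold to 530-fold.

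ANXA3 (NCBI Gene 518050), an annexin abundant in neutrophil granules, was the member with no probe well above background on either array. Its probes at positions 482, 753 and 1290 read 2.75, 3.31 and 2.61 in the pellet and 2.52, 2.49 and 2.11 in the supernatant. Probes with no target had a median of 2.64 in the pellet and of 2.08 in the supernatant. By the main call ANXA3 was therefore not detected on either array, which does not show that its transcript was absent. The probe at position 482 carried the weaker flag in the supernatant, though its 2.52 lay near the level of probes with no target. Of 6 leukocyte genes listed for neutrophils and macrophages, PTPRC, CD14 and CSF1R were detected on both arrays and ITGAM, CSF3R and CXCR2 on neither. PTPRC is not specific to those cells. Their part in the ANXA1 signals was not tested.

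The members measured on both arrays were ANXA6, ANXA11 and FLOT2. ANXA6 (NCBI Gene 327685), the annexin with a doubled core, was measured by 1 of its 3 probes. The probe at position 2397 (chr7:61976471-61976530, minus strand) read 2146 with an error of 215 in the pellet and 76.8 with an error of 7.91 in the supernatant, 27.9-fold apart. The probes at positions 701 and 1778 read 3.39 and 2.32 in the pellet and 2.79 and 1.87 in the supernatant, at the level of probes with no target. ANXA6 was thus detected by its most downstream probe and by no other.

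ANXA11 (NCBI Gene 282142), which has a long proline-rich stretch before its core and binds RNA granules to lysosomes, had 1 of 4 probes detected in both fractions. The probe at position 414 (chr28:34706558-34706617) read 1551 with an error of 155 in the pellet and 59.9 with an error of 6.29 in the supernatant, 25.9-fold apart. The probes at positions 1374, 1678 and 2149 read 65.0, 185 and 1485 in the pellet. Their supernatant signals were 3.13, 3.29 and 6.02, none well above background. The probe at position 2149 thus gave a bound of 164-fold, above the 25.9-fold measured at position 414. The ANXA11 probes do not give 1 difference for the gene.

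FLOT2 (NCBI Gene 615679) had 2 of 3 probes detected in both fractions, and they come from different transcript records. The probe at position 1519 (chr19:20160960-20161019, minus strand) read 8781 and 194, 45.3-fold apart. The probe at position 1689 of its own record (chr19:20161824-20161883, minus strand) read 225 and 47.7, 4.72-fold apart. The probe at position 1072, which the design does not place in the genome, read 2.73 and 3.06 and was detected on neither array. The 2 measured FLOT2 probes differed by far more than repeated spots of 1 probe do.

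Whether these 3 genes stood to the pellet or the supernatant side depended on the scaling. Before scaling all 3 were brighter in the pellet, as were 93.3% of the 3390 genes with a probe detected in both fractions. Each array was then set to its 75th percentile, which moved every log2 difference by 5.56, and none of the 3 was brighter in the pellet, against 25.8% of measured genes. That percentile was a signal of 248 in the pellet but 5.24 in the supernatant, below the lowest signal called well above background there, 9.04. The scaled values thus set a detected signal in the pellet against an undetected one in the supernatant, and the direction they give is limited by that. The log2 differences, pellet minus supernatant, were 4.80 for ANXA6, 4.70 for ANXA11 and 3.87 for FLOT2 before scaling and -0.76, -0.87 and -1.69 after it. Relative to spiked-in control RNA they were 2.53, 2.42 and 1.60. After the percentile scaling the average bounds of genes seen in the pellet alone were 27.5-fold for ANXA5, 7.08-fold for ANXA2 and 1.55-fold for ANXA7. ANXA1, ANXA4 and FLOT1 had no average bound above 1. Single probes of ANXA4 at position 1898 and FLOT1 at position 2033 had 3.72-fold and 11.2-fold, and all other probes of these genes lay below 1.

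A value that no constant scaling moves is the distance from the median of those 3390 genes, a median gene that was itself 11.3-fold brighter in the pellet before scaling. On this log2 scale ANXA6 stood 1.30 above the median gene, ANXA11 1.19 and FLOT2 0.37, the last from probes at 2.0 and -1.26. ANXA6 and ANXA11, 2 of 3, thus exceeded the median gene by 2-fold or more, against 37.3% of measured genes. Their median was 1.19. The difference between repeated spots of 1 probe had an SD of 0.18 (9 probes on 4 spots each), and that between different probes of 1 gene an SD of 1.73 (529 genes). ANXA6, ANXA11 and FLOT2 differ from each other and from the median gene by less than the latter, so their order is not resolved. With bounds in place of missing differences, the 9 members detected in the pellet had an unscaled median of 4.76, from 3.65 to 10.3, beside 3.72 for the 10907 genes with such a difference or bound.

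**Figure D3:**
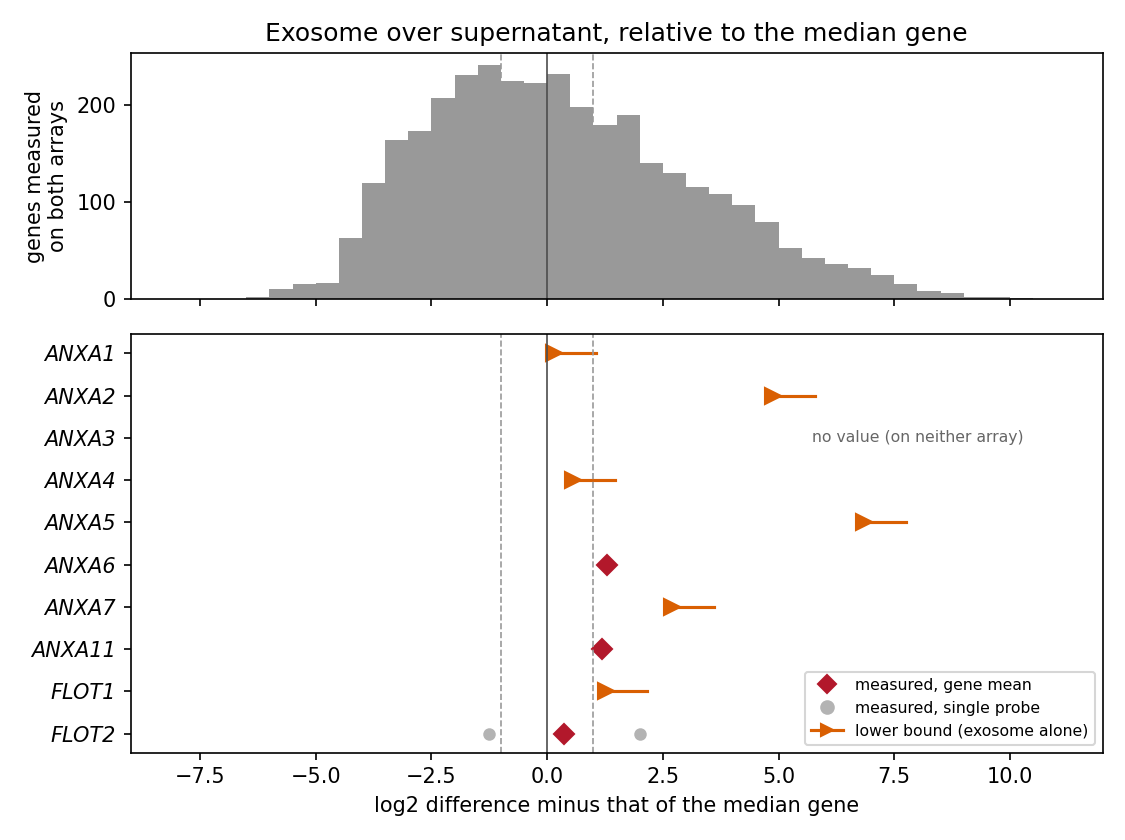
The lower panel gives each gene's log2 exosome-minus-supernatant difference relative to the median gene: diamonds for genes measured on both arrays, grey points for their single probes, and arrowheads for lower bounds of genes detected in the pellet alone. The upper panel is the distribution of the 3390 measured genes, and dashed lines mark 2-fold. FLOT2 lies 0.37 above the median gene between probes at -1.26 and 2.0, and ANXA5 has the highest bound, 6.84.

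Some probes can bind in full to spliced RNA alone, because their place in the genome is far wider than 60 bases. At a width of at least 100 bases there were 6 such probes among the members, and 3 of them were detected in the pellet: ANXA2 at position 170 (15244 bases wide), ANXA7 at position 1197 (1109) and ANXA11 at position 1374 (1057). None of the 6 was detected in the supernatant. The other 3 belonged to ANXA3 and ANXA6. Pellet detection over the array was 52.2% of 6133 such probes and 60.7% of 34294 narrower ones, and 378 of the 6133 were detected in both fractions. Over the array, 11.8% of 3201 such probes detected in the pellet were also detected in the supernatant, against 22.0% of 20804 narrower probes, at a median G and C content of 45% and 43.3%.

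**Figure D4:**
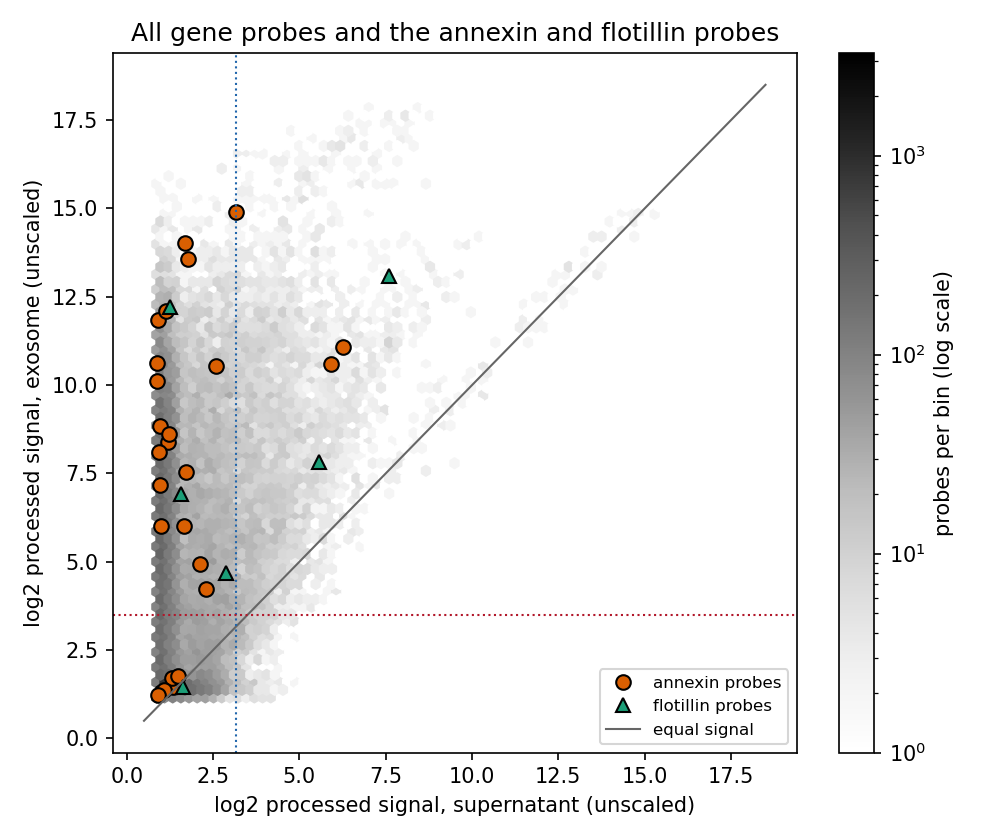
Log2 processed signal (unscaled) of every probe on the supernatant array (horizontal) and the exosome array (vertical), with shading for the number of probes per bin and dotted lines at the lowest signal well above background on each array. Most annexin probes (circles) and flotillin probes (triangles) form a column at the left, not well above background in the supernatant. The other 4 probes lie to the right of the vertical line, at 47.7 to 194 before log2.

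Other annexins on the array were mostly not detected. Of ANXA8L1, ANXA9, ANXA10 and ANXA13, with 1 probe each under these symbols, ANXA13 was detected on both arrays, at 198 and 66.5, which is -1.93 relative to the median gene. The other 3 were detected on neither, nor was a further ANXA13 probe to which the array gives no symbol. Of 9 proteins that pair with annexins, 7 were on the array, 4 were detected in the pellet alone and none in the supernatant. S100A11, the partner of ANXA1, was at least 710-fold higher in the pellet before scaling, and PDCD6, a calcium sensor that binds ANXA7 and ANXA11, at least 166-fold. S100A10, the partner of ANXA2, had a bound of 12.6-fold.

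Relatives of the flotillins were split. Of 14 genes for stomatin-type and caveolar membrane proteins, 10 were detected in the pellet and 7 in the supernatant. Among the 6 measured, 3 exceeded the median gene by 2-fold or more and 3 fell short of it by as much, with a median of -0.32. The prohibitin gene PHB stood at 6.14 and STOML2, a mitochondrial stomatin-like protein, at 3.32. The lowest were CAV2 at -3.42 and STOML3 at -2.97. CAV1, named here after its values were seen, was called in the supernatant alone by 1 of 5 probes, which read 11.7 there and 12.7, uncalled, in the pellet. FLOT2, at 0.37, lay between these groups.

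Genes of membrane repair and other calcium-dependent membrane binders were detected in the pellet for 14 of 16 and in the supernatant for 6. Of those 6, 2 exceeded the median gene by 2-fold or more and 3 fell short of it by as much, with a median of -0.79. The calpain small subunit gene CAPNS1 stood at 5.69 and the copine gene CPNE1 at 5.00. The lowest were the calpain gene CAPN1 at -5.22 and CPNE7 at -1.41. ANXA6 and ANXA11 lay within this range.

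The tissue label was checked against markers of the udder's cells. All 9 marker genes of secretory epithelium were detected in the pellet and 7 in the supernatant, each of the 7 exceeding the median gene by 2-fold or more, with CSN3, a casein, at 7.72 and KRT8, a keratin, at 1.67. Of 5 myoepithelial markers, 4 were detected in the pellet and 3 in the supernatant, and of 5 lymphocyte markers 3 in each. None of these 6 markers of myoepithelium and lymphocytes found in both fractions was 2-fold above the median gene. Which cells the annexin and flotillin transcripts came from was not tested.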

How the data were processed

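RNA of the 2 whey fractions was hybridised to 1-colour Agilent bovine arrays, 1 per fraction, and the submitters' processing notes name Agilent Feature Extraction 10.7.3.1. The deposited intensity is the processed signal, from which background and a spatial trend were removed array by array, per the file headers, without scaling the arrays to each other. For 43602 probes with 1 spot, the deposited log2 table matches log2 of that signal within 0.001, so that table is neither scaled nor centred (column medians 4.81 and 1.32).

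Control spots and outlier spots (5 and 2) were dropped. Repeated spots were averaged, a probe counting as detected where at least 50% of its spots were called. No spot was saturated. Log2 signals were centred on each array's 75th percentile (signals of 248 and 5.24). Each gene takes the mean difference of those of its probes that both arrays detected. A gene detected on the exosome array alone has a bound: the pellet signal over the supernatant signal or 9.04, whichever is higher, averaged in log2 over its detected probes. Symbols are the file's, updated for genes other than the members through the accessions of assembly ARS-UCD2.0 (26739 probes matched), which left 10120 probes unnamed. Whether probes lie in coding or untranslated exons was not analysed here. The sequence of 1 ANXA1 probe is not reported here.

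The members, lists and alternatives were chosen with earlier results of these data known. Every member is named; of each list the 2 highest and 2 lowest measured genes, or the 2 brightest in the pellet where none was measured, with S100A10 and the markers added after values were seen. No test was run, and precision is limited by the number of arrays. The arithmetic was tested on simulated data. Python 3.11.15, pandas 2.3.3, R 4.3.3 and limma 3.58.1 were used.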

Additional observations from a re-analysis of the deposited data

How the results depend on the processing

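With 1 array per fraction, no array could be left out. No paired analysis was possible because each fraction has 1 array and the labels carry no replicate numbers. The detection rule moved the counts most. With the software's weaker flag 9 members, ANXA3 among them, were detected in the supernatant and 8 were measured on both arrays. Over the whole array the genes so measured rose from 3390 to 9595 of 15852. Of the 8 members, 4 exceeded the median gene by 2-fold or more and 3 were brighter in the pellet after scaling, with a median of 0.94. Shares of all genes beside such counts were taken at the main setting only. Under the weaker flag ANXA2 and ANXA5 stood at 8.95 and 8.37 relative to the median gene. ANXA1, ANXA4 and FLOT1 stood at -0.61, -1.46 and -1.59, each from 1 probe, the dimmest of its gene in the pellet. These probes were ANXA1 at position 1350, whose RNA source is uncertain, ANXA4 at 895 and FLOT1 at 628. ANXA2 also rests on 1 probe, at position 1290, its brightest in the pellet. Such values do not stand for all probes of a gene. Requiring detection of every probe of a gene on an array, 7 members were detected in the pellet and 0 in the supernatant, 0 were measured and 0 were above the median gene. With no filter on dim probes all 15852 genes were measured, and the median of the members was 2.94. At that setting 7 members exceeded the median gene by 2-fold or more and 6 were brighter in the pellet. The shares of all genes at that setting are not given here, so these counts have no like comparison. ANXA6 turned to -1.10 because 2 undetected probes then enter its mean. FLOT2, which lies within 2-fold of the median gene, then stood at -0.38. Normexp background correction with an offset of 50 gave a median of 1.49 and 3 members brighter in the pellet. Quantile normalization gave a median of 0.76 and 0 members 2-fold above the median gene. Scaling to the array median, to spike-in probes or not at all gave 3 members brighter in the pellet. With the brightest probe per gene FLOT2 stood at 1.95. Over these alternatives the values of ANXA6, ANXA11 and FLOT2 moved by more than the spot SD in 9 cases. They kept within it in 17 and reversed in 1. A reversal is counted for values at least 2-fold from the median gene, so the sign change of FLOT2 is among the 9. The 17 include all values with outlier spots kept, the authors' deposited table and updated symbols, which returned the main values unchanged. The 17 are therefore no measure of stability. The ANXA1 bound without the probe at position 1350 was chosen after seeing the data. The stricter detection rule, outlier spots kept, the authors' deposited table and members found by updated symbol left the counts of members as reported. Signal over background limits all supernatant values: 4 of the members' 31 probes were well above it, and 13.1% of all 43652 probes were.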
